A study of Mus musculus with 8 samples.

Results

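The pleckstrins and the cofilin pathway comprise 10 genes: the pleckstrins Plek2 and Plek, the actin-severing proteins Cfl1, Cfl2 and Dstn, the LIM kinases Limk1 and Limk2, and the slingshot phosphatases Ssh1, Ssh2 and Ssh3. They were chosen by name as members of these families, with earlier results of these data known. All 10 are listed among the 23337 genes of the count table. RNA sequencing counted their messenger RNA in cells purified from the bone marrow of C57BL/6 mice aged 4 months. Every group, controls included, carried the activating V617F change on 1 copy of Jak2 (JAK2V617F/+), so no group has unmutated Jak2. The 4 groups were TER119-positive erythroblasts (nucleated red cell precursors) labelled Plek2+/+ or Plek2-/-, and Kit-positive lineage-negative hematopoietic stem and progenitor cells (progenitors in what follows) with the same pair of labels. Libraries labelled Plek2+/+ are called control, and those labelled Plek2-/- are called null-labelled, because the Plek2 counts in progenitors went against the label. Each group held 2 libraries, and the labels do not say whether these came from separate mice, so p-values measure the spread between these libraries, which may be technical. Fits that leave out a library keep 1 in its group, so their spread comes from the other groups and calls gained in them add no support. With 2 libraries per group, labels that do not overlap carry little weight. The share of all genes whose labels do not overlap is not given here.

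Pleckstrins carry pleckstrin homology domains, which bind phosphoinositides of the membrane, on either side of a DEP domain. Pleckstrin (Plek) is the classical substrate of protein kinase C in platelets and is abundant in blood cells, and pleckstrin-2 (Plek2) is its relative in erythroblasts, where it acts on the actin cytoskeleton and has been tied to cofilin. Cofilins sever and disassemble actin filaments; LIM kinases switch them off by phosphorylation and slingshot phosphatases switch them on again, steps that messenger RNA levels do not measure.

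Library totals ran from 16038035 to 23521726 counts, and levels are given as CPM, that is, counts scaled to a common library size after TMM normalization. A count of 0 allows 3 counts, or 0.0982 to 0.235 CPM, counting error only. The labels had to be read with 2 reservations. Xist stood at 2522 to 3042 CPM in the 4 control libraries and at 2.13 to 3.60 CPM in the 4 null-labelled ones, and the Y-linked Ddx3y stood at 0.0674 to 0.235 CPM and 117 to 280 CPM respectively, so sex and genotype cannot be told apart. Jak2 stood at 271 to 329 CPM in erythroblasts and 137 to 143 CPM in progenitors. The second reservation is that the deleted part of Plek2 is not stated, and that Plek2 in progenitors was higher in the null-labelled libraries. The purified populations carried their defining markers: 10 erythroid genes summed to 42145 to 45592 CPM in the erythroblast groups and 1037 to 1143 CPM in progenitors, and 10 progenitor genes to 55.6 to 77.8 CPM and 481 to 545 CPM. Neutrophil, B cell, macrophage, megakaryocyte and T or NK cell markers were read in every library, none of them at 0 in both libraries of a group. The 10 neutrophil markers summed to 13088 to 21520 CPM in the erythroblast groups and 4172 to 24385 CPM in progenitors. In progenitors that is above the sum of the progenitor genes, so levels given here are those of the whole sample. In such bulk samples, fewer cells of a type and less RNA per cell cannot be told apart.

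Both pleckstrin promoters and that of Dstn are shown because Plek2, Plek and Dstn were the members called between the genotype labels in erythroblasts, progenitors or both. Each window runs from 250 bases before to 50 bases after the RefSeq start (build GRCm38.p6, 5′ to 3′ on the gene's strand), and capitals mark CpG pairs. The windows are Plek2 at chr12:78906889-78907188 (minus strand), Plek at chr11:17008669-17008968 (minus strand) and Dstn at chr2:143915081-143915380 (plus strand).
Plek2: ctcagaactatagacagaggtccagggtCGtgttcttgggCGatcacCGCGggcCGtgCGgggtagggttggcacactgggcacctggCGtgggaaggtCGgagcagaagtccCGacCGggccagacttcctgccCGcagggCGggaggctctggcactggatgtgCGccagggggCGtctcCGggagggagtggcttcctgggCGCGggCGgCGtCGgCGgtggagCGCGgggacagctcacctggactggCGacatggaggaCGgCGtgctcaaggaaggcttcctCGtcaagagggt
Plek: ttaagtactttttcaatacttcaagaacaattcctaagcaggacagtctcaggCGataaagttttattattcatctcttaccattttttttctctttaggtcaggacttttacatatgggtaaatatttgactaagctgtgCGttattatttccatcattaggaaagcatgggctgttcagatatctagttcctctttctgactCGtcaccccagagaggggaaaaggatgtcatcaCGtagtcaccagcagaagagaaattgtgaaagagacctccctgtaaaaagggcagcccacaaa
Dstn: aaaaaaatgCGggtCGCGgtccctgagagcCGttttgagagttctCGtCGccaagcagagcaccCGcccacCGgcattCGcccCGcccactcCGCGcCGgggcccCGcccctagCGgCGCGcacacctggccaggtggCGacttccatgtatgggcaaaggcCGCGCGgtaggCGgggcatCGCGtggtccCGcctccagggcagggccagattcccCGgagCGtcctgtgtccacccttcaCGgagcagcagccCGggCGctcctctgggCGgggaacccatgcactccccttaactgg

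The Plek2 and Dstn windows hold 27 and 31 CpG pairs at a GC content of 68.7% and 69.7%, and the Plek window holds 4 at 39%. Over all 32851 RefSeq promoter windows the median was 7 CpG pairs and 52.7% GC. A few sets of letters were searched on both strands: the GATA motif (AGATAA with A or T first and A or G last; in 29.8% of all windows), the STAT motif (TTCNNNGAA; 8.30%) and the CArG box (1.63%). None of these letters is in the 3 printed windows. Among the 15 windows of the 10 members, 1 of Cfl1 held a GATA motif 194 bases before the start, 1 of Limk2 a STAT motif 48 bases before it and 1 of Ssh3 a STAT motif 241 bases before it.

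In the GENCODE vM21 annotation of GRCm38 (mm10), Plek2 lies on chromosome 12 from 78888691 to 78906964 on the minus strand. Plek lies on chromosome 11 from 16971206 to 17052381 (minus), where its exons overlap those of the opposite-strand gene Cnrip1. Cfl1 lies on chromosome 19 from 5490455 to 5495201 (plus) and overlaps Snx32, and Cfl2 lies on chromosome 12 from 54858809 to 54862877 (minus) and overlaps 1700081N11Rik. Because the strand setting of the counting is not given, how reads in the shared stretches of these 3 members and their opposite-strand partners were counted is not known. Cfl1 also shares stretches of at least 95% identity with other transcripts, among them the pseudogene Gm6180 over 498 bases, and Plek shares such stretches with 8 other genes over at most 115 bases, so the counts of both are uncertain to that extent. Dstn lies on chromosome 2 from 143915320 to 143943324 (plus). The LIM kinase genes lie on chromosome 5 from 134656039 to 134688598 (Limk1, minus) and chromosome 11 from 3344256 to 3409189 (Limk2, minus). The slingshot genes lie on chromosome 5 from 113937094 to 113993894 (Ssh1, minus), chromosome 11 from 77216287 to 77460220 (Ssh2, plus) and chromosome 19 from 4261668 to 4269180 (Ssh3, minus).

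Per kilobase of exon, Cfl1 and Dstn were the most abundant members in every group. In control erythroblasts Cfl1 stood at 120 ± 7.23 RPKM, which is CPM per kilobase of exon (SD, n = 2), and Dstn at 117 ± 9.59, and these did not separate beyond their spread. Plek2 followed at 74.8 ± 9.03 RPKM and Plek at 41.5 ± 2.12. The remaining members lay below 10 RPKM: Cfl2 at 7.82 ± 0.153, Ssh2 at 6.75 ± 0.178, Limk2 at 5.15 ± 0.109, Ssh1 at 3.28 ± 0.119, Ssh3 at 1.76 ± 0.151 and Limk1 at 0.742 ± 0.232. In control progenitors Plek2 moved from rank 3 to last, at 0.654 ± 0.292 RPKM after Ssh1 at 1.37 ± 0.0211. Ssh2 at 10.7 ± 0.111 and Limk2 at 7.55 ± 0.0928 stood above Cfl2 at 5.36 ± 0.260 there, where Cfl2 was above both in control erythroblasts. Limk1 at 3.92 ± 0.340 RPKM and Ssh3 at 4.09 ± 0.0237 were not separated there. In the null-labelled libraries, Plek and Plek2 overlapped in erythroblasts (35.9 ± 5.40 and 32.0 ± 2.19 RPKM), as did Cfl2 and Ssh2 (6.66 ± 1.23 and 5.63 ± 0.847). In null-labelled progenitors, Plek2 and Limk1 overlapped (3.39 ± 0.270 and 3.35 ± 0.223 RPKM), and Dstn led at 122 ± 12.6. The order of the members rests in part on the length used. With the longest transcript in place of all exons (9178 against 18519 bases for Ssh2), Ssh2 passed Cfl2 in erythroblasts. By that length Cfl1 stood at 145 RPKM in control erythroblasts, where Dstn stayed at 117. In null-labelled progenitors Cfl1 then stood at 118 RPKM, close to Dstn at 122. The ties of Limk1 in progenitors also depend on the length. By the longest transcript it stood at 8.09 RPKM in control progenitors, above Ssh3 at 6.70 and Cfl2 at 5.95. In null-labelled progenitors Limk1 then stood at 6.91 RPKM, above Plek2 at 3.39.

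**Figure D1:**
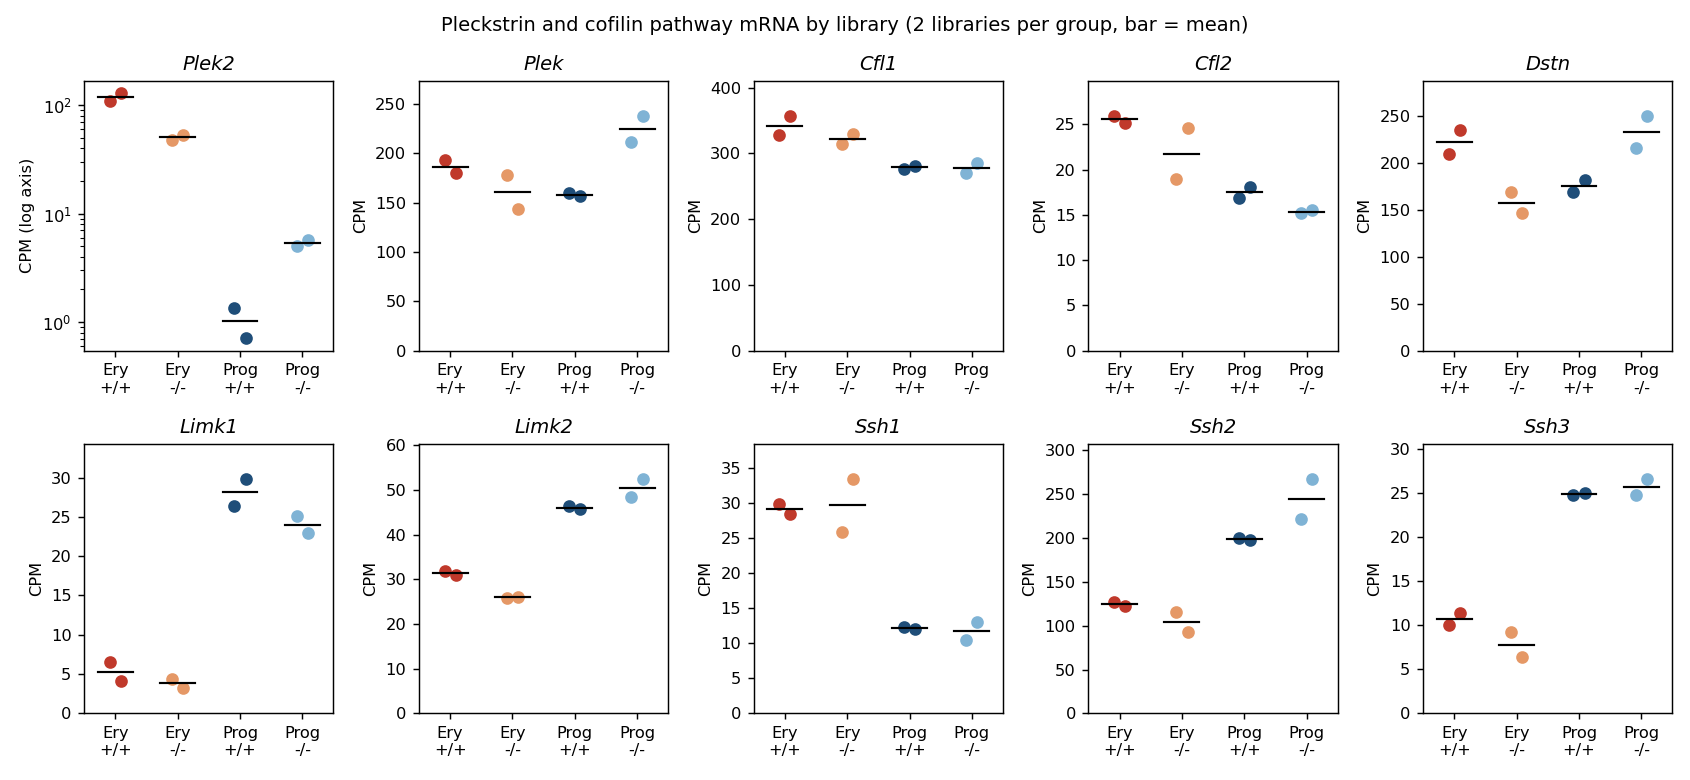
Level of each of the 10 members in each library (CPM on TMM-scaled totals) by group, with points for the 2 libraries and a bar for their mean; +/+ marks control and -/- null-labelled libraries. Plek2 spans from 0.708 CPM in a control progenitor library to 129 CPM in a control erythroblast library, while Cfl1 stays between 270 and 356 CPM.

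Plek2 messenger RNA was far more abundant in erythroblasts than in progenitors, and its level differed in opposite directions between the genotype labels in the 2 populations. Control erythroblasts held 108 and 129 CPM (1770 and 1894 counts) and null-labelled erythroblasts held 48.2 and 53.1 CPM (616 and 781 counts). Control progenitors held 1.36 and 0.708 CPM (29 and 21 counts) and null-labelled progenitors held 5.06 and 5.66 CPM (130 and 173 counts). No 2 of the 4 groups overlapped. In erythroblasts the null-labelled libraries were 2.32-fold lower (log2 -1.21, SE 0.11, edgeR adjusted p 9.92e-05), which leaves messenger RNA from the locus counted in them. In progenitors the null-labelled libraries were 5.55-fold higher (log2 2.47, 95% interval 1.83 to 3.11, edgeR adjusted p 0.00253), the reverse of the label. The genotype effects differed between the populations by -3.66 (SE 0.26, edgeR adjusted p 6.34e-05). Summed erythroid markers overlapped between the progenitor labels (1051 to 1127 CPM in controls, 1037 to 1143 CPM in null-labelled ones), and edgeR, DESeq2 and limma-voom called 0 of these 10 markers in either genotype comparison. At an unadjusted edgeR p below 0.05 the counts were 0 in erythroblasts and 5 in progenitors, where 9 of the 10 were positive with a median log2 effect of 0.39, and their part in the Plek2 result was not tested. Where along Plek2 these reads lie cannot be read from gene totals.

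Across populations, Plek2 was 119-fold higher in erythroblasts than in progenitors under the control label (log2 6.90, SE 0.19, edgeR adjusted p 3.17e-12). It was 9.41-fold higher in the null-labelled libraries (log2 3.23, SE 0.15, edgeR adjusted p 4.39e-10). These calls and those between the labels held under every alternative that was run. The 5 genes whose pattern over the 8 libraries lay nearest to that of Plek2, among 13364 compared, were Gstt1, 2410076I21Rik, Sh3yl1, 2010110P09Rik and Rragd, at a root mean square distance of 0.62 to 0.76 on the log2 scale. Gstt1, a glutathione transferase, stood at 11.2 CPM in control erythroblasts and 8.96 CPM in null-labelled ones, against 0.198 and 0.450 CPM in the progenitor groups. Rragd, a Rag GTPase of the mTORC1 pathway, stood at 51.4, 45.5, 1.49 and 2.57 CPM in the same order.

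Plek was abundant in both populations, and edgeR called it between the labels in progenitors and not in erythroblasts. Control erythroblasts held 193 and 180 CPM of Plek, and null-labelled erythroblasts 178 and 144 CPM. Control progenitors held 160 and 156 CPM, and null-labelled progenitors 211 and 237 CPM, above both control libraries. In progenitors Plek was 1.46-fold higher in the null-labelled libraries (log2 0.55, SE 0.07, edgeR adjusted p 0.00481); the call ended without control replicate 2 (adjusted p 0.0685). In erythroblasts the groups did not overlap, at a log2 difference of -0.20 (95% interval -0.43 to 0.03) that edgeR did not call (adjusted p 0.408). Without single libraries this difference ran from -0.37 to -0.06. The 2 genotype effects differed by -0.72 (SE 0.14, edgeR adjusted p 0.00833), a call that held under all 14 alternatives. Between populations Plek was higher in erythroblasts under the control label (log2 0.24, edgeR adjusted p 0.0464) and lower in the null-labelled libraries (log2 -0.48, adjusted p 0.000707). The former call was lost without control erythroblast replicate 1 or either control progenitor library (adjusted p 0.0811 to 0.161).

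The pattern of Plek over the 8 libraries lay nearest to those of Atp2c1, Numb, C030046I01Rik, Ifitm3 and Evi2a, at a root mean square distance of 0.05 to 0.07 on the log2 scale. Atp2c1, a calcium and manganese pump of the Golgi, stood at 125, 107, 108 and 144 CPM in control erythroblasts, null-labelled erythroblasts, control progenitors and null-labelled progenitors. As a share of the summed RPKM of both pleckstrins, Plek2 made up 64.2% ± 3.95 (SD, n = 2) in control erythroblasts and 47.3% ± 5.46 in null-labelled erythroblasts. In progenitors the share was 1.81% ± 0.773 in controls and 6.34% ± 0.0164 in null-labelled libraries.

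Among the actin-severing proteins, Dstn was called between the labels in both populations and Cfl1 and Cfl2 in neither. Dstn (destrin, also called ADF) stood at 210 and 236 CPM in control erythroblasts and at 169 and 147 CPM in null-labelled ones. In progenitors it stood at 169 and 182 CPM in controls and at 216 and 250 CPM in null-labelled libraries. The labels did not overlap in either population, and the direction turned. Dstn fell 1.40-fold in erythroblasts (log2 -0.49, SE 0.10, edgeR adjusted p 0.0237) and rose 1.37-fold in progenitors (log2 0.45, SE 0.08, edgeR adjusted p 0.0194). The difference between these effects was -0.91 (SE 0.14, edgeR adjusted p 0.00172) and held under all 14 alternatives. The single effects were less firm: the erythroblast call ended without either control library or without null-labelled replicate 2 (adjusted p 0.0982 to 0.186), and the progenitor call without either control library (adjusted p 0.103 and 0.174).

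Cfl1 (cofilin-1, the non-muscle form) stood at 327 and 356 CPM in control erythroblasts and at 314 and 330 CPM in null-labelled ones. Progenitors held 277 and 281 CPM in controls and 270 and 285 CPM in null-labelled libraries. The labels overlapped in both populations, with differences on the log2 scale of -0.08 (95% interval -0.28 to 0.13) in erythroblasts and 0.04 (-0.11 to 0.18) in progenitors, neither called by edgeR. Cfl2, the form best known from muscle, held 18.9 to 25.9 CPM in erythroblasts and 15.2 to 18.1 CPM in progenitors, and its genotype intervals were -0.53 to 0.09 and -0.37 to 0.08. Between populations Cfl1 was higher in erythroblasts by 0.29 under the control label and by 0.21 in the null-labelled libraries (log2; edgeR adjusted p 0.00421 and 0.0236), and Cfl2 by 0.54 and 0.51 (adjusted p 0.00153 and 0.00275). Dstn was higher in erythroblasts by 0.34 under the control label (edgeR adjusted p 0.00700) but lower by log2 -0.56 in the null-labelled libraries (adjusted p 0.000183). Scaling by library totals turned the Cfl1, Cfl2, Dstn and Plek differences negative under the control label and those of Cfl1 and Cfl2 in the other, while it moved the median of all genes by -0.81 and -0.79. Under the null label the Cfl1 call was also lost without erythroblast replicate 2 or progenitor replicate 1 (adjusted p 0.143 and 0.102), with no filter (0.0736) or in a fit of those 4 libraries alone (0.0719), and that of Cfl2 without erythroblast replicate 2 (0.0635). Under the control label the Dstn call was lost without progenitor replicate 1 (0.0669).

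Per kilobase, the 3 genes summed to 245 and 203 RPKM in control erythroblasts and null-labelled ones, and to 195 and 224 RPKM in the progenitor groups. Dstn made up 47.6% ± 0.675 of that sum in control erythroblasts, 40.8% ± 3.50 in null-labelled erythroblasts, 47.0% ± 0.971 in control progenitors and 54.3% ± 1.66 in null-labelled progenitors (SD, n = 2). The ratio of Dstn to Cfl1 was 0.954 and 0.984 in control erythroblasts, 0.802 and 0.661 in null-labelled ones, 0.910 and 0.964 in control progenitors and 1.19 and 1.31 in null-labelled progenitors. Both control groups lay between the null-labelled groups.

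**Figure D2:**
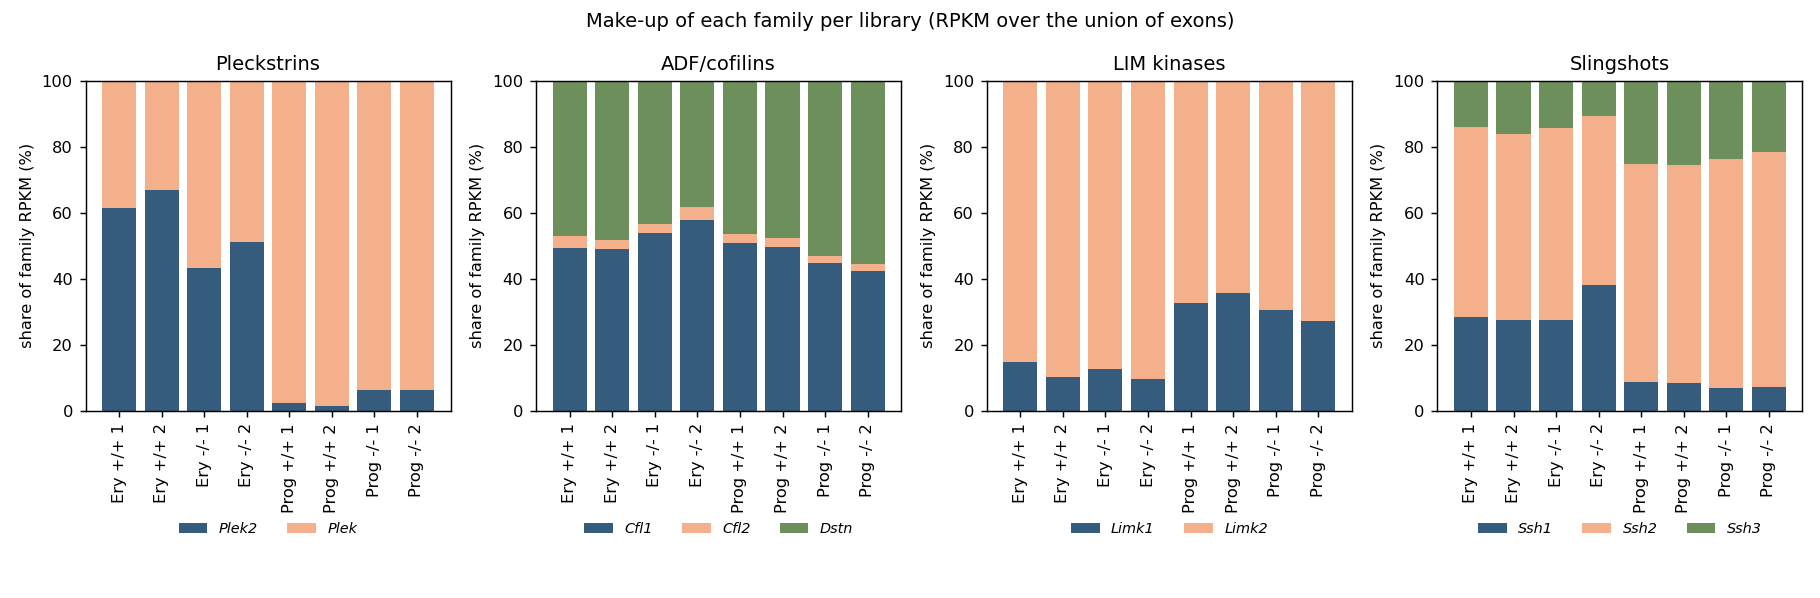
Share of each member in the summed RPKM of its family (percent) in stacked bars, 1 bar for each library. The Plek2 share of the pleckstrins falls from 64.2% in control erythroblasts to 1.81% in control progenitors, and the Ssh1 share of the slingshots from 27.8% to 8.46%.

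Both LIM kinases were lower in erythroblasts than in progenitors. Limk1 stood at 6.49 and 4.14 CPM in control erythroblasts and at 4.38 and 3.26 CPM in null-labelled ones. Control progenitors held 26.4 and 29.8 CPM and null-labelled progenitors 25.1 and 22.9 CPM. Limk1 was 5.26-fold lower in erythroblasts than in progenitors under the control label (log2 -2.39, SE 0.18, edgeR adjusted p 5.84e-08) and 6.32-fold lower in the null-labelled libraries (log2 -2.66, adjusted p 3.99e-08). Limk2 held 25.8 to 31.9 CPM in erythroblasts and 45.7 to 52.5 CPM in progenitors and was lower in erythroblasts by log2 -0.55 and -0.96 (edgeR adjusted p 8.87e-05 and 5.20e-07). Neither LIM kinase was called between the genotype labels by edgeR: the intervals in erythroblasts were -1.07 to 0.11 for Limk1 and -0.51 to -0.02 for Limk2 (adjusted p 0.453 and 0.294), and the adjusted p in progenitors were 0.373 and 0.290. Without single libraries the progenitor effect ran from -0.27 to -0.095 for Limk1 and from 0.12 to 0.23 for Limk2. Limk1 made up 12.5% and 11.1% of LIM kinase RPKM in the erythroblast groups and 34.2% and 28.9% in the progenitor groups, in the order control and null-labelled.

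The slingshots did not share a direction between populations. Ssh1 stood at 29.9 and 28.4 CPM in control erythroblasts and 25.9 and 33.4 CPM in null-labelled ones, against 12.3 and 12.0 CPM and 10.5 and 13.1 CPM in the progenitor groups. It was 2.40-fold higher in erythroblasts under the control label (log2 1.26, SE 0.14, edgeR adjusted p 3.11e-06) and 2.51-fold higher in the null-labelled libraries (log2 1.33, adjusted p 1.63e-06). Every erythroblast library lay above every progenitor library. Ssh3 went the other way, with 6.39 to 11.3 CPM in erythroblasts and 24.7 to 26.6 CPM in progenitors, 2.33-fold lower in erythroblasts under the control label and 3.31-fold lower in the other (edgeR adjusted p 4.90e-06 and 2.44e-07). Ssh1 and Ssh3 were not called between the genotype labels by edgeR in erythroblasts (intervals -0.26 to 0.33 and -0.89 to -0.01) or in progenitors (adjusted p 0.998 and 0.663).

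Ssh2 stood at 127 and 123 CPM in control erythroblasts and 115 and 93.1 CPM in null-labelled ones. Progenitors held 200 and 197 CPM in controls and 221 and 267 CPM in null-labelled libraries. It was lower in erythroblasts by log2 -0.67 under the control label and -1.23 in the other (edgeR adjusted p 9.01e-05 and 2.77e-07). The genotype labels did not overlap in either population, but edgeR called neither effect: log2 -0.26 in erythroblasts (95% interval -0.48 to -0.03, adjusted p 0.263) and 0.34 in progenitors (0.13 to 0.55, adjusted p 0.0845). The difference between them was -0.56 (SE 0.15, edgeR adjusted p 0.0497) and lost its call under 8 of 14 alternatives (adjusted p up to 0.175). The progenitor effect was called by edgeR with no filter (adjusted p 0.000255) and in DESeq2 (0.0229). Without single libraries the effect ran from -0.42 to -0.12 in erythroblasts and from 0.20 to 0.47 in progenitors. The summed slingshot RPKM was 1.94 and 2.07 times that of the LIM kinases in control erythroblasts, 2.20 and 2.08 times in null-labelled ones, 1.44 and 1.38 times in control progenitors and 1.50 and 1.72 times in null-labelled progenitors. Erythroblast libraries thus all lay above progenitor libraries in this ratio of messenger RNA.

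**Figure D3:**
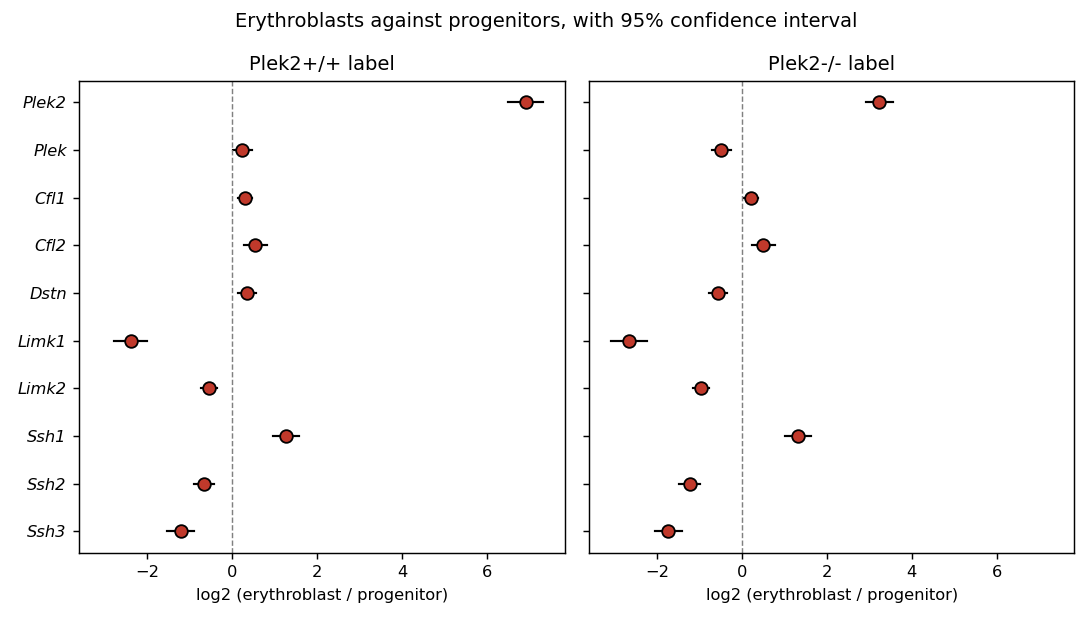
Log2 difference between erythroblasts and progenitors for each member, under the control label and the null label, with 95% confidence intervals from edgeR. Plek2 stands at 6.90 and 3.23, Limk1 at -2.39 and -2.66, and Plek and Dstn lie on opposite sides of 0 in the 2 panels.

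Taking the members as a list, all 10 were called between populations under the control label (6 higher in erythroblasts, 4 lower), where 73.8% of 13365 tested genes were called (36% higher, 37.8% lower). In the null-labelled libraries all 10 were called as well (4 higher, 6 lower), against 76.7% (37.5% higher, 39.2% lower). Shares of that size are near the background, so the count says little about the members. Between the genotype labels 2 of 10 members were called in erythroblasts, Plek2 and Dstn, both lower, against 2.84% of 12241 tested genes (2.66% lower). Plek2 is the gene that the genotype labels name, so its call in a genotype comparison says nothing about the other members. Among those, only Dstn was called in erythroblasts. The median log2 effect of the 10 was -0.26 there, against 0.01 over all tested genes. In progenitors 3 of 10 were called, Plek2, Plek and Dstn, all higher, against 4.91% of 13168 tested genes (4.5% higher, 0.402% lower), with a median of 0.13 against -0.01. The genotype effects differed between populations for 4 of 10, Plek2, Plek, Dstn and Ssh2, all more negative in erythroblasts, against 5.55% of 13365 (5.32% in that direction). Limk2 and Ssh3 stood at -0.41 and -0.51 without an edgeR call (adjusted p 0.0916 and 0.219), and the other 4 lay between -0.27 and 0.07. Without single libraries the Ssh3 difference ran from -0.83 to -0.32. Without single libraries, the number of members called ran from 1 to 4 in erythroblasts and from 1 to 6 in progenitors; it was 1 in progenitors without control replicate 2 and 6 without null-labelled replicate 1. The comparisons share libraries, so they are not independent of each other.

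**Figure D4:**
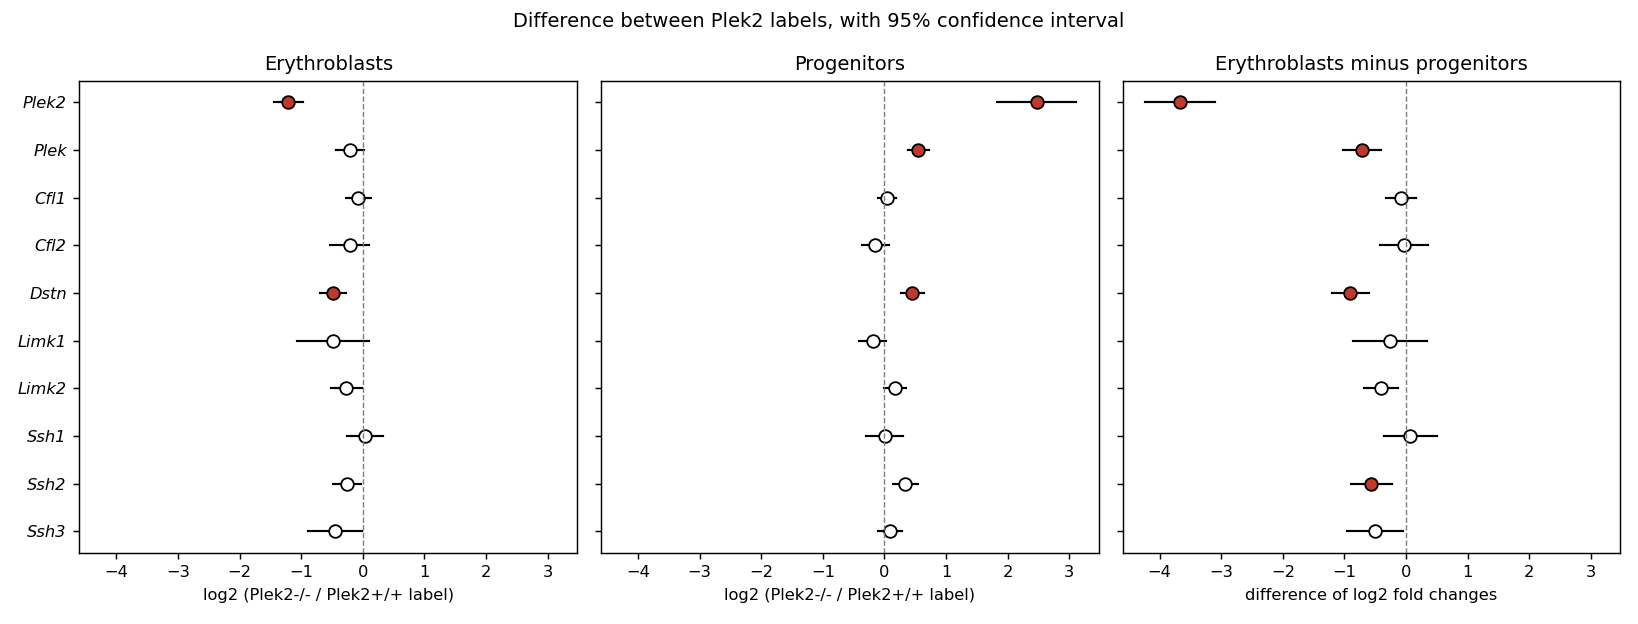
Log2 difference of null-labelled libraries from control libraries for each member, in erythroblasts and in progenitors, and the difference of these effects, with 95% confidence intervals from edgeR and filled points for called genes. Plek2 lies at -1.21 and 2.47 and Dstn at -0.49 and 0.45, while the intervals of Cfl1 span 0 in both populations.

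Neutrophil markers differed between the labels in the same directions as Plek2, Plek, Dstn and Ssh2, the members whose genotype effects differed between populations. Most called genes went that way: 326 of 348 were lower in erythroblasts and 593 of 646 higher in progenitors. Of the members not called in these comparisons, Cfl1, Limk2 and Ssh3 had the same signs. Limk1 and Cfl2 were lower in both populations, and Ssh1 was near 0. The 10 markers summed to 18637 and 21520 CPM in control erythroblasts, 14425 and 13088 CPM in null-labelled ones, 7053 and 4172 CPM in control progenitors and 18058 and 24385 CPM in null-labelled progenitors. By edgeR, 6 of 10 were lower in null-labelled erythroblasts (2.84% of all tested genes were called) and 10 of 10 higher in null-labelled progenitors (4.91%). B cell markers also fell in erythroblasts, 4 of 10 (170 to 201 CPM in controls, 84.6 to 117 CPM in null-labelled ones), and megakaryocyte and platelet markers rose in progenitors, 3 of 10 (260 to 272 CPM against 341 to 342 CPM); DESeq2 called 1 of the 10. For progenitor, macrophage and T or NK cell markers edgeR, DESeq2 and limma-voom called 0 in either genotype comparison. At an unadjusted edgeR p below 0.05 the counts were 3, 1 and 2 in erythroblasts and 4, 6 and 3 in progenitors. Macrophage markers summed to 1312 to 1515 CPM in erythroblasts and 93.0 to 112 CPM in progenitors, and T or NK cell markers to 40.8 to 57.3 CPM and 104 to 122 CPM. Between populations under the control label, edgeR called 9 of the 10 neutrophil markers, all 9 higher in erythroblasts (median log2 of the 10, 1.75). In the null-labelled libraries it called all 10 lower in erythroblasts (median -0.78). Over all tested genes 36% were called higher in the former contrast and 39.2% lower in the latter. Plek and Dstn turned sign between these contrasts in the same way under TMM scaling. With library totals both were negative under the control label as well (log2 -0.58 and -0.47), so for them the turn rests on the scaling. The part of these cells in the results for Plek2, Plek, Dstn and Ssh2 was not tested.

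**Figure D5:**
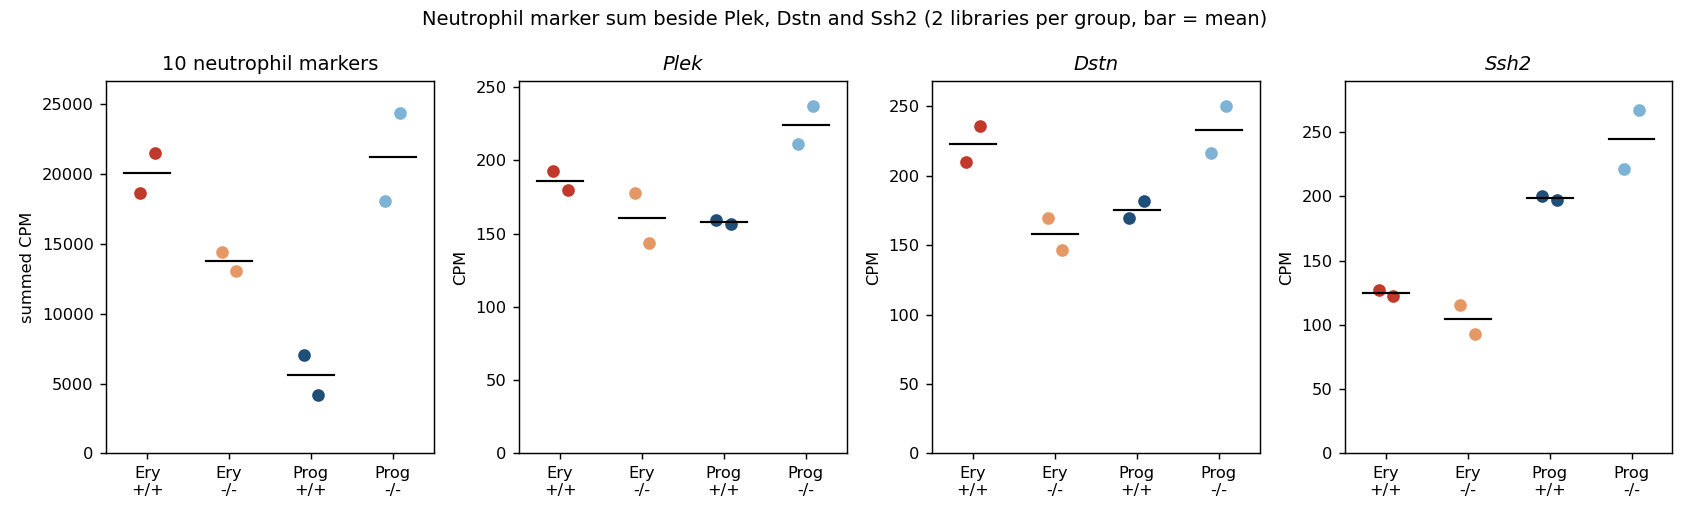
Summed level of 10 neutrophil markers (CPM) and levels of Plek, Dstn and Ssh2 (CPM) in each library, with a bar for each group's mean. In all 4 panels the null-labelled (-/-) progenitor libraries lie above the control (+/+) ones and the null-labelled erythroblast libraries below. Plek, Dstn and Ssh2 are members whose genotype effects differed between populations by edgeR, so the panels do not speak for the other members. Cfl2 and Limk1, not shown, were lower without overlap in null-labelled progenitors.

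Of 35 other genes known to act on cofilin or beside it, 32 were tested in erythroblasts, and 4 were lower in null-labelled libraries: Tesk2, Rac2, Coro1a and Cotl1 (over all tested genes 2.84% were called, 2.66% lower). None was higher, and the median log2 effect was -0.11 against 0.01 over all genes. In progenitors 33 were tested and 3 were higher, Tesk2, Cap1 and Cotl1, with a median of 0.10 against -0.01 (over all tested genes 4.91% were called, 4.5% higher). These counts were unstable: in erythroblasts 7 were called by DESeq2, with no filter or in the fit of all 8 libraries, 8 without null-labelled replicate 1, 1 without null-labelled replicate 2 and 0 without control replicate 1 or replicate 2. In progenitors 7 were called with no filter, 9 without null-labelled replicate 1, 11 without null-labelled replicate 2 and 1 without control replicate 2. Tesk2, a kinase that phosphorylates cofilin, stood at 21.0 ± 0.966 CPM in control erythroblasts and 13.6 ± 0.345 CPM in null-labelled ones (log2 -0.62, edgeR adjusted p 0.0328; SD, n = 2). In progenitors it stood at 22.7 ± 0.529 and 36.7 ± 5.11 CPM (log2 0.74, edgeR adjusted p 0.00741). Its effects differed between populations by -1.32 (edgeR adjusted p 0.000532). Cap1, which works with cofilin in taking filaments apart, was higher in progenitors by 0.53 (edgeR adjusted p 0.00456), and its -0.37 in erythroblasts was not called (0.0585). It was called there by DESeq2 (0.0221), and by edgeR with no filter (0.00995) and in the fit of all 8 libraries (0.0320). Without single libraries its erythroblast effect ran from -0.49 to -0.28. Cotl1, a coactosin that binds filaments, differed by -0.52 in erythroblasts and 0.33 in progenitors (edgeR adjusted p 0.0236 and 0.0272). Rac2, a blood cell GTPase, and Coro1a, a coronin, were lower in erythroblasts by log2 -0.47 and -0.63 (edgeR adjusted p 0.0146 and 0.0215). Their values of 0.32 and 0.17 in progenitors were not called, though Rac2 was by edgeR with no filter (0.000670). Without single libraries these progenitor values ran from 0.15 to 0.48 for Rac2 and from 0.13 to 0.22 for Coro1a.

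Of 6 protein kinase C genes, which include the kinases of pleckstrin, Prkcb and Prkcd were lower in null-labelled erythroblasts (log2 -0.42 and -0.47, edgeR adjusted p 0.0254 and 0.0476) and Prkcb was higher in progenitors (0.61, adjusted p 0.0192), where 2.84% and 4.91% of all tested genes were called. Prkcb stood at 159 ± 1.36 and 119 ± 1.03 CPM in the erythroblast groups and 159 ± 10.9 and 236 ± 39.3 CPM in the progenitor groups. The neutrophil marker sums given above moved the same way as these regulators, as did most called genes. The part of neutrophils in these values was not tested. Leaving out control erythroblast replicate 1, or replicate 2, ended all 6 erythroblast calls of these regulators (adjusted p 0.0924 to 0.403). Leaving out null-labelled erythroblast replicate 2 ended all but that of Rac2 (0.0552 to 0.251), and scaling by library totals ended those of Tesk2 and Prkcd (0.0612 and 0.0749). In progenitors, those of Cap1, Cotl1 and Prkcb were lost without control replicate 2 (0.102, 0.559 and 0.125), and that of Cotl1 also without control replicate 1 (0.165), with library totals (0.0574) and in the fit of all 8 libraries (0.128). Between populations under the control label, 28 of 33 cofilin regulators were called (7 higher in erythroblasts, 21 lower), against the 73.8% of all genes given above. The largest differences by the naming rule were those of Cdc42bpa, a kinase of the LIM kinases, at 137 CPM in erythroblasts against 27.0 CPM in progenitors (log2 2.34, edgeR adjusted p 2.81e-10), and Dbn1, the actin-binding drebrin, at 0.316 CPM against 1.52 CPM (log2 -2.24, adjusted p 0.00153). In the control erythroblast libraries Dbn1 held only 0.204 to 0.428 CPM, near their limit of 3 counts (0.184 and 0.204 CPM), so its fold is uncertain. Rock1, another kinase that acts on LIM kinases, stood at 542 CPM against 210 CPM (log2 1.37, edgeR adjusted p 1.07e-08). The protein kinase C genes Prkce and Prkch stood at 11.3 CPM against 31.9 CPM and at 14.6 CPM against 36.9 CPM (log2 -1.49 and -1.33). Actb, the cytoplasmic actin that cofilin acts on, stood at 4082 and 3449 CPM in the erythroblast groups and 3841 and 4620 CPM in the progenitor groups and was not called between the genotype labels by edgeR (adjusted p 0.395 and 0.116); DESeq2 and limma-voom called 1 of the 2 listed actins in progenitors and 0 in erythroblasts.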

How the data were processed

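RNA sequencing libraries of 8 samples in 4 groups of 2 were grouped by the genotype and cell labels. Tools named are STAR 2.5.2a, cutadapt 1.13, DESeq2 1.14.1 and HTSeq 0.6.1pl on build mm10, per the submitters' processing notes. What annotation and strandedness were set is not given in the sources used here. Raw counts per gene, as deposited by the authors, are the unit analysed; the deposited normalized table was not used.

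Counts were tested with edgeR 4.0.16 (R 4.3.3): TMM scaling, filterByExpr, quasi-likelihood fits, and Benjamini-Hochberg adjustment over all tested genes, called below 0.05. Genotype was tested within each population. Contrasts between populations and the difference of genotype effects came from 1 fit of all 8 libraries. Effects are Plek2-/- minus Plek2+/+ or erythroblast minus progenitor. Standard errors are the log2 effect divided by the root of F, and intervals are at 95%. RPKM divides CPM by the exon length of GENCODE vM21. The fit was tested on simulated data. The limit of 3 counts covers counting error only, since no molecular identifiers are named. Intervals of effects come from the spread between libraries. Replicates differed by more than counting error (chi-square per degree of freedom 5.65 to 15.7).

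Named are the 10 members, the regulators called between genotype labels, the 5 regulators with the largest called difference between populations, and the 5 genes nearest in pattern to Plek2 and to Plek. The members and gene lists were chosen with earlier results of these data known. DESeq2 1.42.0, limma-voom 3.58.1, other scalings, no filter, a replicate block and leaving out each library were tried as alternatives. Leaving out a library left 1 in its group, so the p-values of those fits depend on how alike the libraries of the other groups are.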

Additional observations from a re-analysis of the deposited data

Results flagged for a closer look

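The genotype effect differed between populations, by the interaction term of the edgeR fit over all 8 libraries, for 4 members. The effect in erythroblasts minus that in progenitors was -3.66 for Plek2, -0.72 for Plek, -0.91 for Dstn and -0.56 for Ssh2 on the log2 scale. Among the named regulators the same term gave -1.32 for Tesk2, -0.77 for Rac2, -0.87 for Cap1, -0.77 for Coro1a, -0.82 for Cotl1 and -0.99 for Prkcb (edgeR adjusted p 0.000532 to 0.0157). The call of Coro1a was lost without control erythroblast replicate 2 (0.0524) or control progenitor replicate 2 (0.0688). Prkcd stood at -0.54 and was not called (0.0524), but was under 7 of 14 alternatives (0.000538 to 0.0447). All 10 neutrophil markers were called in the same direction by that term, as were 711 of all 742 called genes. The part of neutrophils in these values was not tested.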

How the results depend on the processing

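The calls of Plek2 in all 5 comparisons held under every alternative run, as did the differences of genotype effects for Plek and Dstn. The number of genes called between genotype labels in erythroblasts was 348; it was 230 with library totals and 845 with no filter, and 25 to 995 without single libraries. In progenitors it was 646, with 1315 under no filter and 239 to 2649 without single libraries. For the difference of effects it was 742, with 1215 under no filter and 401 to 1175 without single libraries. Members called ran from 1 to 4 in erythroblasts, 1 to 6 in progenitors and 3 to 5 for the difference of effects. The cause was not tested.

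Of the called genes in progenitors 91.8% were higher, and 79.8% with library totals; between populations the share higher in erythroblasts fell from 48.8% to 18.7% (Plek2+/+) and from 48.9% to 20.5% (Plek2-/-). With library totals the log2 difference between populations in the Plek2+/+ label was -0.58 for Plek, -0.52 for Cfl1, -0.27 for Cfl2 and -0.47 for Dstn, and in the Plek2-/- label -0.57 for Cfl1 and -0.28 for Cfl2, against a median of all genes of -0.87 and -0.86.

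Uncalled effects near 0 changed sign. Without single libraries, Ssh1 ran from -0.17 to 0.20 in erythroblasts and from -0.17 to 0.14 in progenitors, and Cfl1 from -0.0011 to 0.071 in progenitors. The difference of effects ran from -0.31 to 0.10 for Cfl2, from -0.58 to 0.038 for Limk1 and from -0.20 to 0.24 for Ssh1. In progenitors, Cfl1 stood at -0.023 with library totals and -0.0057 in the fit of all 8 libraries, and Ssh1 at -0.060 and -0.041.

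Replicate numbers are shared between groups, and the labels do not say whether they pair libraries. Deviations of same-numbered libraries correlated at -0.08 to 0.10, which cannot decide this with 2 libraries per group. With a replicate block 579 genes were called in erythroblasts, 4 members in progenitors, where Ssh2 gained a call (adjusted p 0.0323), and Ssh1 stood at -0.0033 there. The block also gave 7 cofilin regulators called in erythroblasts, Cap1 among them (adjusted p 0.0234); the Ssh2 difference lost its call (adjusted p 0.0611).

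At these depths Plek2 in Plek2+/+ progenitors rests on 29 and 21 counts, and Limk1 in erythroblasts on 48 to 106.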
